A study of Mus musculus with 6 samples.

Results

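Dual specificity phosphatases and immediate early response (IER) genes were followed in naive CD8 T cells of mice with and without the receptor LAIR-1. The 9 genes were chosen by symbol (Dusp1, Dusp2, Dusp4, Dusp5, Dusp6, Dusp10, Ier2, Ier3 and Ier5), and all 9 were found among the 14515 genes of the count table. The choice was made with results of these libraries known, namely that early response genes differed between mice of the same genotype. The spread between mice and its relation to the genotype difference are therefore given as descriptions, and they support nothing further.

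The wild type group held 3 Lair1+/+ mice and the LAIR-1-deficient group 3 Lair1-/- mice, numbered 1 to 3 in each. LAIR-1 is an inhibitory leukocyte receptor for collagen. From each spleen 100000 cells were sorted as CD45+, CD3+, CD8+ and CD44-, among other criteria, and their total RNA gave 1 library per mouse. The labels leave out strain, age, sex, the part of Lair1 that the allele removes, and whether mice of the same number were handled together.

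Mitogen-activated protein kinases (ERK, p38 and JNK) carry signals from the T cell receptor and from stress to the nucleus. Dual specificity phosphatases of the MAP kinase phosphatase class remove phosphate from both the threonine and the tyrosine of the kinases' activation loop, and several are themselves transcribed in response to the kinases, which makes them feedback brakes. IER genes are named for rapid transcription after growth factor or antigen receptor signals that needs no prior protein synthesis. Their products are not enzymes: IER3 and IER5 are known as partners of protein phosphatase 2A.

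Promoter letters are shown for Dusp1, Dusp2 and Dusp5, the 3 genes whose mouse 1 libraries stood highest above all others. RefSeq promoter windows (build GRCm38.p6) matched 7 of the 9 genes, all but Dusp4 and Ier2. The 250 bases before the RefSeq gene start were searched on both strands, and the first 200 of them are printed 5′ to 3′ on the gene's strand, ending 51 bases before the start. The Dusp1 stretch is chr17:26508523-26508722 on the minus strand, the Dusp2 stretch chr2:127335909-127336108 and the Dusp5 stretch chr19:53528895-53529094, both on the plus strand. Positions are counted from the RefSeq start, which is not always the outer end of the gene in GENCODE: for Dusp1, GENCODE also annotates transcripts that begin farther upstream, so the stretch shown lies within its GENCODE gene bounds, and for Dusp5 the GENCODE start lies slightly upstream of the RefSeq one. Capitals mark matches to the cyclic AMP response element (CRE) or its shorter form TGACG in Dusp1, to the EGR motif in Dusp2, and to the CArG box and a CRE TGACG site in Dusp5.
Dusp1: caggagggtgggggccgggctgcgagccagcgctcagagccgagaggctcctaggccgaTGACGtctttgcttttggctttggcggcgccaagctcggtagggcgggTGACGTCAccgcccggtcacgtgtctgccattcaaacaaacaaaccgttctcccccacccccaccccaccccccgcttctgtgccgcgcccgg
Dusp2: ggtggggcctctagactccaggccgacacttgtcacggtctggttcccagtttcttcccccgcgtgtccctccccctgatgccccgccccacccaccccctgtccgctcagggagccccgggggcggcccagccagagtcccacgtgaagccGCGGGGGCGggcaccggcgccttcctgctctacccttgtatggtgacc
Dusp5: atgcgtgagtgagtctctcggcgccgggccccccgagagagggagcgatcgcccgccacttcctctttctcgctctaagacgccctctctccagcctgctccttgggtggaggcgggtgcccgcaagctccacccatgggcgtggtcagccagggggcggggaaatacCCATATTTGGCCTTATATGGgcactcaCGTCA

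The Dusp1 window held the full CRE, TGACGTCA, from 143 to 136 bases before the start, and a further TGACG site, the shorter form, from 191 to 187 bases before it. The full element contains the TGACG site on each strand, so 3 TGACG sites were counted in Dusp1. A full CRE was present in 1.55% and a TGACG site in 17.8% of the 32851 RefSeq windows of the same length. Dusp2 had 1 match to the EGR motif GCGNGGGCG, from 98 to 90 bases before the start and overlapping a GC box, a motif found in 4.7% of windows. Dusp5 had 2 adjoining CArG boxes, the element bound by serum response factor, from 82 to 73 and from 72 to 63 bases before the start. A CArG box was found in 1.47% of windows. The GC box GGGCGG, present in 32.7% of windows, was found in 6 of the 7 windows and not in that of Dusp6. No window of the 7 held the AP-1 motif TGANTCA, the ETS core CCGGAAG or TATAAA, which 6.75%, 6.91% and 12.4% of windows held. A match describes letters in a window and not a bound site.

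Library totals over genes ran from 5519748 to 9187017, and those of mouse 1 were 7974206 in wild type and 7039990 in LAIR-1-deficient. Levels are CPM (counts scaled to a library of 1000000) after scaling of libraries by TMM, given as mean ± SD with n = 3 mice per genotype, and intervals on single libraries are exact Poisson ones that cover counting error only. Lair1 had 58, 32 and 43 counts in Lair1+/+ mice 1 to 3 and 2, 1 and 1 in Lair1-/- mice 1 to 3 (log2 fold change -4.58, edgeR adjusted p 0.00255). The T cell markers Cd8b1 and Cd3e lay between 1457 and 1577 CPM and between 1147 and 1634 CPM. Levels are not ranked between genes, since the part of each transcript that was read is not given.

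The nuclear inducible phosphatases Dusp1 and Dusp2 were high in mouse 1 of both genotypes. DUSP1 acts on p38, JNK and ERK in the nucleus. Dusp1 was at 289, 94.3 and 96.7 CPM in Lair1+/+ mice 1 to 3 and at 355, 78.4 and 100.2 CPM in Lair1-/- mice 1 to 3. The lower of the mouse 1 levels was 2.88 times the highest of the other 4 libraries, which ranged from 78.4 to 100.2 CPM across genotypes. The lowest, LAIR-1-deficient mouse 2, had a counting interval of 71.3 to 86.1 CPM. That lay below the interval of the next, wild type mouse 2, at 88.1 to 101 CPM. The mean of Dusp1 was 160 ± 112 CPM in the wild type group, against 178 ± 154 CPM without LAIR-1.

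Dusp2 encodes a phosphatase named for activated lymphoid cells (PAC-1). Its level was 1258, 563 and 578 CPM in Lair1+/+ mice 1 to 3 and 1270.0, 509 and 432 CPM in Lair1-/- mice 1 to 3. The lower mouse 1 level was 2.18 times the highest other level, and they nearly coincided: the LAIR-1-deficient one was 1.01 times the wild type one, with a 95% counting interval of 0.981 to 1.04. In mice 2 and 3 the LAIR-1-deficient levels were both below the wild type levels, an order also found for Dusp4, Ier2, Ier3 and Ier5. Dusp1, Dusp5, Dusp6 and Dusp10 did not have it. Mouse 1 was set aside here with its values known, and Dusp4 had few counts in mice 2 and 3 (5 and 15 against 0 and 3). The share of all genes with this order was not determined, so it is not read as a genotype difference. Means were 800 ± 397 and 737 ± 463 CPM.

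Dusp4 and Dusp5, the other nuclear members of the class, were close to the detection limit and failed the filter on low counts. Dusp4 had 3, 5 and 15 counts in Lair1+/+ mice 1 to 3 and 2, 0 and 3 counts in Lair1-/- mice 1 to 3. Most of its counts came from wild type mouse 3, at 1.68 CPM, and mouse 1 was not high in either genotype. By the limit of 3 counts that is used for a count of 0, the 0 in LAIR-1-deficient mouse 2 allows a level of up to 0.534 CPM, and the exact two-sided 95% interval drawn in the plot of levels reaches 0.656 CPM. Dusp5, which acts on ERK, had 9, 1 and 4 counts in wild type and 8, 1 and 0 counts in Lair1-/- mice 1 to 3. Here mouse 1 was again highest in both genotypes, at 1.14 and 1.15 CPM, while the 0 in LAIR-1-deficient mouse 3 allows up to 0.410 CPM by the limit of 3 counts and 0.504 CPM by the exact two-sided interval. The counting interval of the wild type mouse 1 level, 0.519 to 2.15 CPM, overlapped that of wild type mouse 3, 0.122 to 1.15 CPM.

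Dusp6 encodes the cytoplasmic phosphatase specific for ERK. It was at 28.5, 21.2 and 24.5 CPM in Lair1+/+ mice 1 to 3 and at 40.4, 24.5 and 20.1 CPM in Lair1-/- mice 1 to 3. Mouse 1 was highest in each genotype, by 1.17 times the next wild type library and 1.64 times the next LAIR-1-deficient library. The counting interval of wild type mouse 1 was 24.9 to 32.5 CPM. It overlapped those of wild type mouse 3 (21.3 to 27.9 CPM) and LAIR-1-deficient mouse 2 (20.6 to 29.0 CPM). The LAIR-1-deficient mouse 1 level was 1.42 times the wild type mouse 1 level (counting interval 1.18 to 1.69). Dusp6 was not alone in this: the ratio was 1.23 (1.16 to 1.30) for Dusp1 and 1.31 (1.17 to 1.47) for Dusp10. For Ier2 it was 1.24 (1.18 to 1.30) and for Ier5 0.947 (0.874 to 1.03). Each ratio compares 1 mouse with 1 mouse. Means were 24.7 ± 3.64 and 28.3 ± 10.6 CPM.

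Dusp10 encodes a phosphatase of JNK and p38. Levels were 73.5, 38.8 and 55.6 CPM in Lair1+/+ mice 1 to 3 and 96.4, 53.4 and 47.7 CPM in Lair1-/- mice 1 to 3. Both mouse 1 libraries again stood above the 4 others, by at least 1.32 times. Wild type mice 2 and 3 differed from each other, with counting intervals of 34.9 to 43.1 and 50.9 to 60.8 CPM. Mean levels were 56.0 ± 17.3 and 65.8 ± 26.6 CPM.

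Ier2 encodes a nuclear protein of the early response. It was at 447, 264 and 271 CPM in Lair1+/+ mice 1 to 3 and at 555, 243 and 181 CPM in Lair1-/- mice 1 to 3. The lower mouse 1 level was 1.65 times the highest other level, and mice 2 and 3 had the order described for Dusp2, with the same limit. Means were 328 ± 104 and 326 ± 200.3 CPM.

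Ier5, whose product brings protein phosphatase 2A to the heat shock factor HSF1, had a smaller range. It was at 170.0, 121 and 113 CPM in Lair1+/+ mice 1 to 3 and at 161, 105 and 112 CPM in Lair1-/- mice 1 to 3. Mouse 1 was highest in both genotypes, by at least 1.33 times, and the other 4 libraries lay within 105 to 121 CPM. Means were 135 ± 30.8 and 126 ± 30.5 CPM.

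Ier3, which encodes a regulator of cell survival and ERK signalling, did not follow the other IER genes. Its counts were 15, 26 and 39 in Lair1+/+ mice 1 to 3 and 28, 8 and 13 in Lair1-/- mice 1 to 3. In CPM these were 1.89, 2.85 and 4.38 against 4.04, 1.42 and 1.78, so mouse 1 was the lowest of the wild type and the highest of the LAIR-1-deficient libraries. The ratio of the mouse 1 levels, LAIR-1-deficient over wild type, was 2.13 with a counting interval of 1.10 to 4.30. Means were 3.04 ± 1.25 and 2.41 ± 1.42 CPM.

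**Figure D1:**
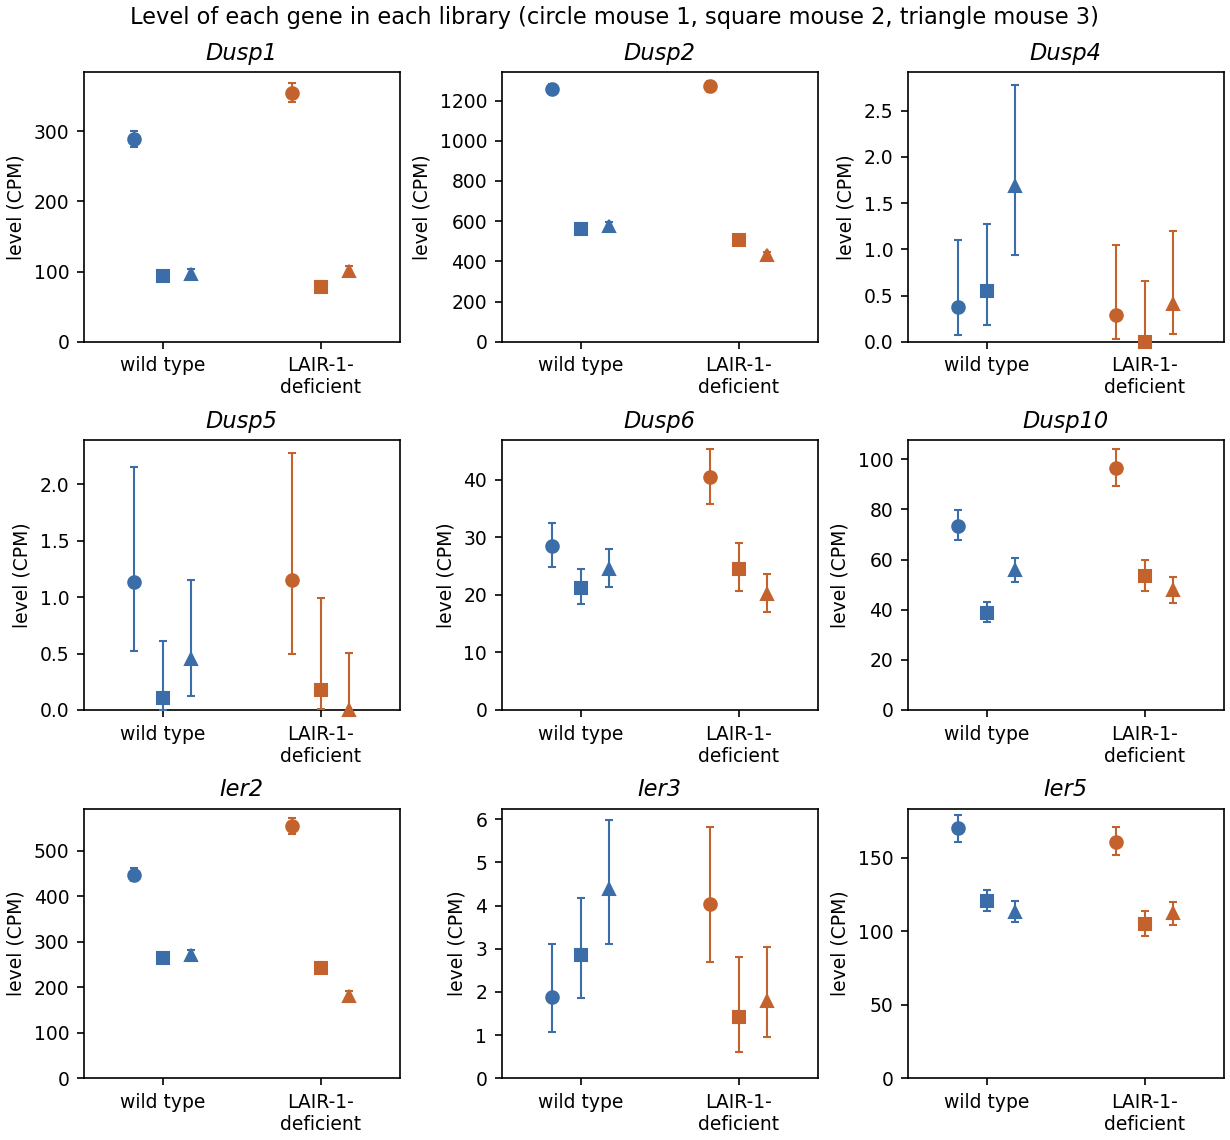
Level in CPM of each gene in each of the 6 libraries, by genotype, with exact 95% Poisson intervals. Mouse 1 (circles) is highest in both genotypes for 7 of the 9 genes, and Dusp4 and Ier3 depart from this order.

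Across the 9 genes, both mouse 1 libraries were above the 4 others for 7, or for 6 of the 7 tested for genotype. Among all 9565 genes tested, 11.9% had this order. The lower mouse 1 level was at least 2-fold above every other library for Dusp1, Dusp2 and Dusp5, of which Dusp5 rests on 9 and 8 counts and was not tested. It held for 2 of the 7 tested genes, for 10 of the 27 other early response genes tested and for 0.261% of all genes tested. Since the genes were chosen with this pattern known, the counts are descriptive.

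Other measures of the libraries also differed in mouse 1. The mitochondrial share of counts was 17.2% and 15.6% in wild type and LAIR-1-deficient mouse 1 and between 19.2% and 21.1% in the 4 others. Of the 4 natural killer cell markers listed, all were in the table, and their summed level, nearly all of it Eomes, was 38.3 and 41.4 CPM in the mouse 1 libraries and 50.4 to 58.7 CPM in the others. Ncr1, a defining receptor of those cells, was at 0 in every library but LAIR-1-deficient mouse 3, which had 0.137 CPM. Klrb1c and Gzma stayed at or below 0.449 and 1.15 CPM. The sum thus follows Eomes and is not read as a measure of natural killer cells. Sums of B cell markers (5 of 6 in the table) were 30.5 and 32.6 CPM in mouse 1 and 25.3 to 32.8 CPM in the others. For monocytes and macrophages (6 of 6) they were 5.42 and 5.05 against 5.05 to 7.93 CPM, with Lyz2 at 0 in 4 of the 6 libraries, both of mouse 1 among them. Summed dendritic cell markers (5 of 5) stayed between 0.711 and 2.05 CPM in every library. The part of these measures in the spread of the phosphatase and IER genes was not tested. In bulk RNA, fewer cells with a transcript and less of it per cell cannot be told apart.

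The spread between mice of one genotype exceeded the genotype difference for 8 of the 9 genes. The SD of log2 CPM within a genotype, pooled over both, was 1.05 for Dusp1, 0.75 for Dusp2, 0.67 for Ier2, 0.50 for Dusp10, 0.39 for Dusp6 and 0.32 for Ier5. The median over all genes tested was 0.20. Differences of mean log2 CPM, LAIR-1-deficient minus wild type, were 0.03 for Dusp1, -0.18 for Dusp2, -0.13 for Ier2, 0.21 for Dusp10, 0.14 for Dusp6 and -0.10 for Ier5. Spread and difference were 0.64 and -0.36 for Ier3, 1.11 and -0.39 for Dusp5, and 0.78 and -1.13 for Dusp4. Dusp4, with 28 counts in all libraries together, was thus the exception. A spread above the difference was common, found for 74.4% of all genes tested.

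**Figure D2:**
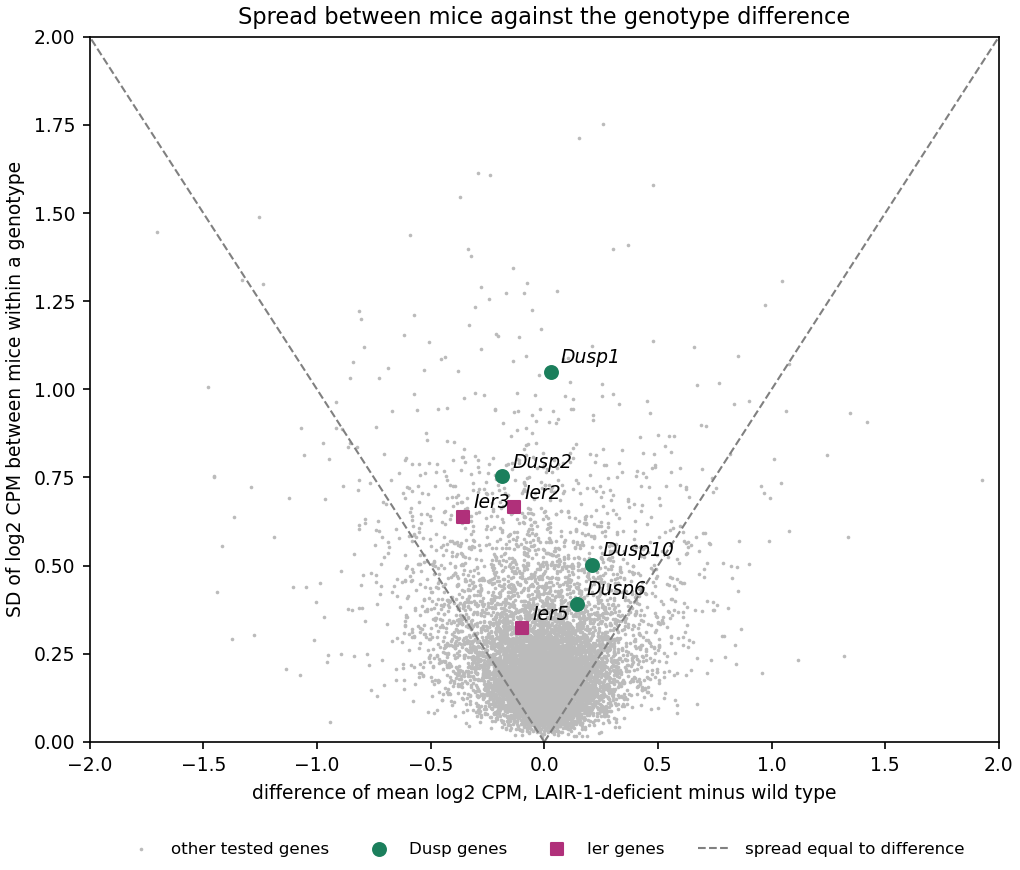
SD of log2 CPM between mice within a genotype (vertical) against the difference of mean log2 CPM between genotypes (horizontal) for 9562 of the 9565 tested genes, with the other 3 beyond the axes and the 7 tested phosphatase and IER genes named. All 7 named genes lie above the dashed lines, where the spread exceeds the difference, and Dusp1 is highest at 1.05.

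Comparing genotypes addresses the effect of LAIR-1 on these genes in sorted naive CD8 T cells. No difference passed the test in either direction: of the 7 genes tested, 0 were called by edgeR (adjusted p 0.9999 for each), where 1 of all 9565 genes was called (0.0105%), namely Lair1. At an unadjusted p under 0.05 the count was 0 of 7, against 3.25% of all genes, and DESeq2 and limma-voom also called 0 of the 7. The 3 wild type and 3 LAIR-1-deficient levels overlapped for all 9 genes, where 8.38% of all genes tested had groups apart.

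Log2 fold changes, LAIR-1-deficient over wild type, were 0.16 ± 0.87 (SE) for Dusp1 and -0.12 ± 0.62 for Dusp2. For Dusp6 and Dusp10 they were 0.20 ± 0.23 and 0.24 ± 0.39. The IER genes had -0.0053 ± 0.54 for Ier2, -0.32 ± 0.44 for Ier3 and -0.09 ± 0.20 for Ier5. The intervals show how far the data limit a difference. For Dusp1 the 95% interval of the fold ran from 0.218 to 5.71 and for Dusp2 from 0.286 to 2.97, so in this fit, with no term for mouse number, changes of several-fold either way were within it. It was narrowest for Ier5 (0.677 to 1.30) and Dusp6 (0.810 to 1.63). The fitted values for Dusp4 and Dusp5 with no filter on low counts were -1.77 (95% interval -3.72 to 0.19, adjusted p 0.958) and -0.29 (-2.31 to 1.72, adjusted p 0.993).

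Each of the 7 log2 fold changes turned sign with some single library left out. When Lair1-/- mouse 1 was left out, the value was -0.84 for Dusp1, -0.77 for Dusp2 and -0.63 for Ier2. Without wild type mouse 1 it was 0.90, 0.37 and 0.29 for the same genes. Ier3 moved between -0.92 without LAIR-1-deficient mouse 1 and 0.03 without wild type mouse 3. None was called in any of these fits (smallest adjusted p 0.984).

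With mouse 1 of both genotypes left out, a choice made with the pattern known, only mice 2 and 3 of each genotype remained. The SE of the log2 fold change was smaller for 6 of the 7 tested genes and larger for Ier3. For those 6 genes the libraries left out were the highest, so a smaller SE follows in part from the choice. The intervals of this fit are therefore descriptions and no test of a genotype difference. The fold was then 0.935 for Dusp1 (95% interval 0.777 to 1.13), 0.970 for Dusp6 (0.752 to 1.25), 1.07 for Dusp10 (0.845 to 1.34) and 0.925 for Ier5 (0.785 to 1.09). It was 0.822 for Dusp2 (0.709 to 0.951), 0.788 for Ier2 (0.661 to 0.940) and 0.449 for Ier3 (0.217 to 0.929). These last 3 genes were at an unadjusted p under 0.05, a level reached by 4.53% of the 9707 genes of that fit. None passed adjustment (adjusted p 0.916 for Dusp2 and Ier2 and 0.995 for Ier3), and 0 of all genes did (0%).

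**Figure D3:**
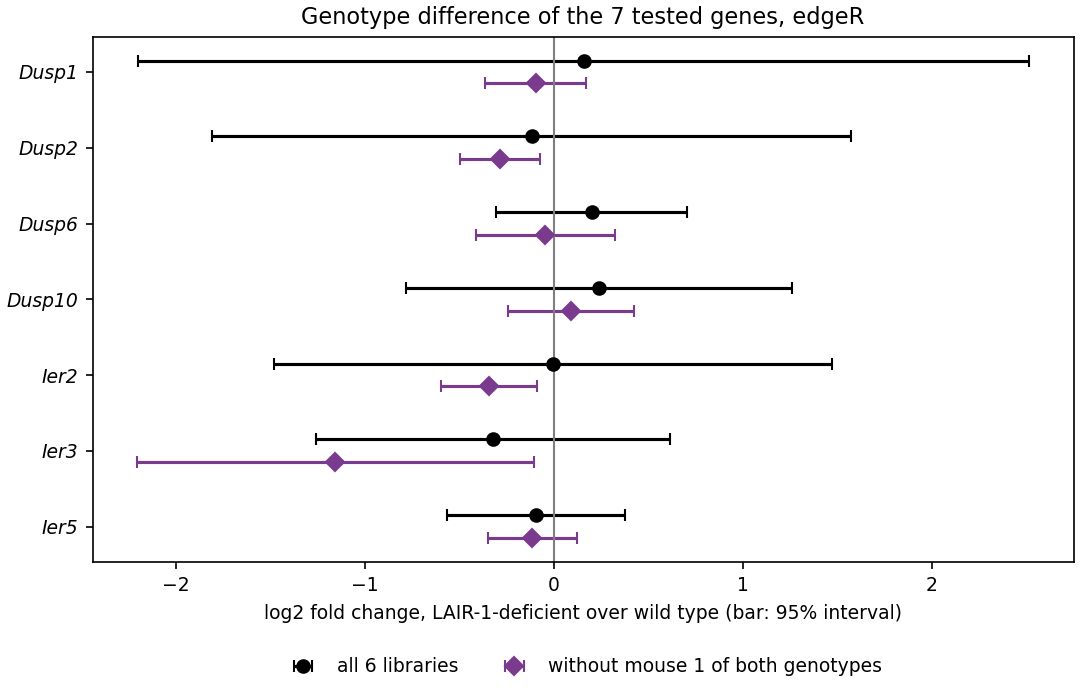
Log2 fold change, LAIR-1-deficient over wild type, with its 95% interval from edgeR for the 7 tested genes, with all 6 libraries (circles) and without mouse 1 of both genotypes (diamonds). With all libraries every interval includes 0, and the Dusp1 and Dusp2 intervals are much narrower without mouse 1. Mouse 1 was left out with the pattern known. The intervals of Dusp2, Ier2 and Ier3 then exclude 0, and none of these genes passes adjustment.

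Profiles of the phosphatase and IER genes over the 6 libraries were compared as the root mean square distance between log2 CPM values centred on each gene's mean. Dusp2 and Ier2 were closest among the 36 pairs of the 9 genes, at 0.147, followed by Dusp6 and Dusp10 at 0.155. Dusp1 and Dusp4 were farthest apart, at 1.25. For the 7 genes whose log2 CPM spanned at least 1 over the libraries, the nearest 3 of 6614 other genes at 10 CPM or more were found. Dusp6, with a range of 0.997, lay just under that limit, and Ier5 had a range of 0.69.

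Nearest to Dusp1 were Fosl2 (0.147), Jun (0.153) and Zc3h12a (0.168). Csrnp1 (0.116), Nfkbia (0.122) and Odc1 (0.123) were nearest to Dusp2. Dusp10 lay nearest to Sertad1 (0.101), Rrad (0.126) and Rab33b (0.130), and Ier2 to Klf9 (0.112), Marcksl1 (0.136) and Btg2 (0.140). Dusp5 had Plk3 (0.227), Egr1 (0.275) and Sik1 (0.305). Neighbours of Ier3 (Cops7a, Lage3 and Tmem181b-ps, 0.311 to 0.324) and of Dusp4 (Tmem181b-ps, Xrcc6 and Mettl13, 0.576 to 0.589) were farther away. The points of a distance share libraries and depth, so it is a description over 6 libraries.

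Of 20 other phosphatases listed, 15 were in the table and 11 were tested: 0 were called in either direction, 6 had a positive and 5 a negative log2 fold change, and their median was 0.04, where that over all genes was 0.00059. Dusp28 was the only one of the 11 that was highest in both mouse 1 libraries, by 1.00 times (named after its values were seen), a share near the 11.9% of all genes tested. Dusp7, an ERK phosphatase closely related to Dusp6, was at 28.0, 27.8 and 25.5 CPM in wild type and 27.5, 34.5 and 36.5 CPM in Lair1-/- mice 1 to 3 (log2 fold change 0.28). Dusp12 had a log2 fold change of 0.34 (unadjusted p 0.0325 and adjusted p 0.9999 by edgeR). It was the only one of the 11 with an unadjusted p under 0.05, a level reached by 3.25% of all genes tested. Dusp11, which acts on RNA, stayed between 79.8 and 85.6 CPM, and the slingshot cofilin phosphatase Ssh2 between 217 and 255 CPM.

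The kinases that these phosphatases act on varied between mice about as genes in general did. All 27 tested genes of the Ras and ERK cascade were without a call, with 14 positive and 13 negative log2 fold changes and a median of 0.015. Their median SD of log2 CPM within a genotype was 0.16, where that over all genes was 0.20, and 2 of the 27 were highest in both mouse 1 libraries. The exchange factor gene Sos1 had a log2 fold change of 0.31 and Rasa3, a GTPase activating protein, one of 0.20. Ets1, a transcription factor at the end of the cascade, lay between 360 and 443 CPM, and Rasal3 between 172 and 199 CPM.

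Genes of the p38 and JNK cascades gave 12 positive and 12 negative log2 fold changes over 24 tested genes, with 0 called and a median of -0.0020. Their median SD was 0.17, and 4 of the 24 were highest in both mouse 1 libraries. Map2k3, which activates p38, had a log2 fold change of 0.20 and Map4k4 one of -0.20. Map2k7, which activates JNK, ranged from 103 to 152 CPM and Map3k1 from 86.7 to 114 CPM.

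Of 14 listed genes of ERK feedback, 12 were in the table and 8 tested, with 5 positive and 3 negative log2 fold changes, a median of 0.04 and 0 called. Spry4, a Sprouty inhibitor of Ras signalling, was at 1.51, 0.219 and 0.112 CPM in wild type and 2.16, 1.07 and 1.64 CPM in Lair1-/- mice 1 to 3 (log2 fold change 1.46, edgeR adjusted p 0.9999). Its wild type mice 2 and 3 were under 3 counts. Spred1 had a log2 fold change of 0.40. Ptpn22 lay between 325 and 498 CPM. Ptpn7, which encodes a phosphatase of ERK, lay between 34.6 and 51.7 CPM. Phlda1 was the 1 tested gene of the list that was highest in both mouse 1 libraries, at 19.7 and 15.4 CPM against 4.79 to 8.64 CPM (named after its values were seen).

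Partners of the IER proteins, mainly subunits of protein phosphatase 2A, had 9 positive and 4 negative log2 fold changes over 13 tested genes, with 0 called, a median of 0.09 and a median SD of 0.12. Ppp2r1b and Ppp2r5e had log2 fold changes of 0.27 and 0.24. The catalytic subunit gene Ppp2ca stayed between 258 and 297 CPM. Mcl1, a survival factor known as a partner of IER3, was at 622, 529.6 and 561 CPM in wild type and 622, 560.3 and 538 CPM in Lair1-/- mice 1 to 3.

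Among 27 tested early response genes outside the phosphatase and IER genes, 26 were highest in both mouse 1 libraries. Myc was the exception, at 71.8, 72.0 and 90.2 CPM in wild type and 102, 91.4 and 66.9 CPM in Lair1-/- mice 1 to 3. Their median ratio of the lower mouse 1 level to the highest other level was 1.81, against 1.33 for the 7 tested phosphatase and IER genes and 0.802 for all genes tested. Over the 27 genes that ratio ran from 0.785 to 4.17, and it was at least 2-fold for 10 of them. It was 1.99 for Klf4, 1.71 for Junb and 1.28 for Jund. Between genotypes the early genes had 21 positive and 6 negative log2 fold changes, with a median of 0.05 and 0 called.

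**Figure D4:**
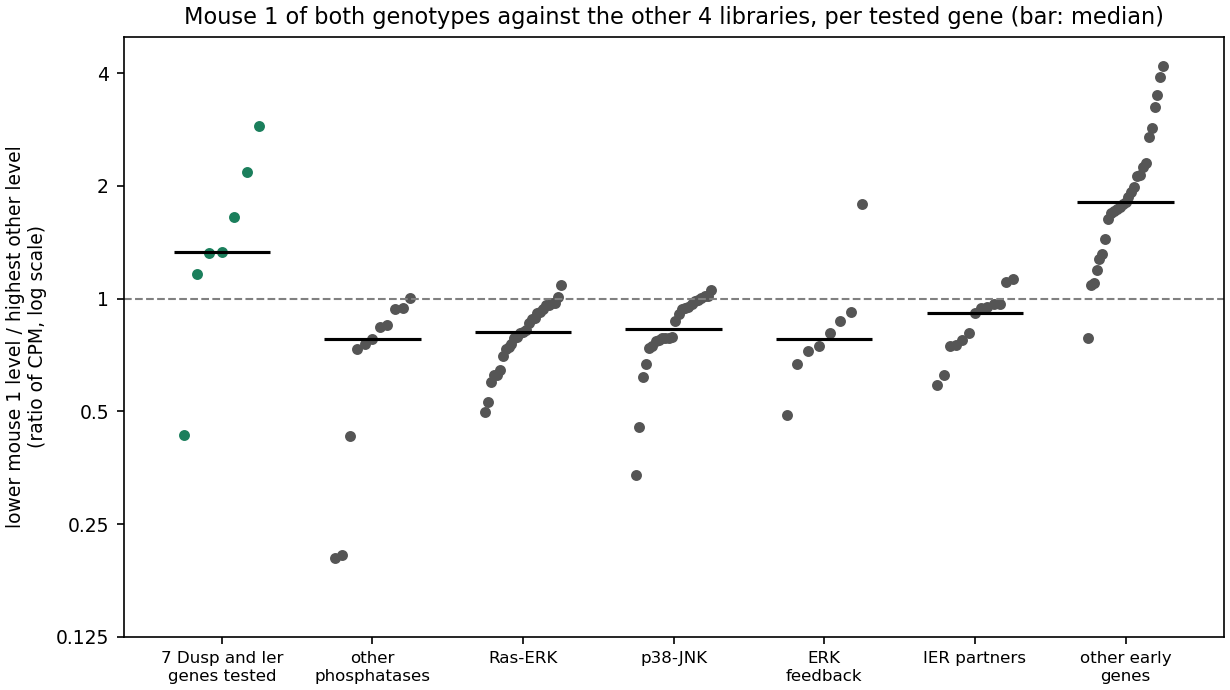
Ratio of the lower mouse 1 level to the highest of the other 4 libraries for each tested gene (points; log axis) in 7 sets of genes, with the median of each set as a bar. Points above 1 are highest in both mouse 1 libraries: 6 of 7 in the phosphatase and IER genes, 26 of 27 in the other early genes and 1 of 11 in the other phosphatases.

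The 9 genes lie apart in the genome except for pairs on the same chromosome. In GENCODE vM21 (GRCm38), Dusp1 is on chromosome 17 (26505590 to 26562128, minus strand) and Ier3 on the same chromosome (35821684 to 35822923, plus strand). Dusp10 (184013302 to 184075636, plus strand) and Ier5 (155096361 to 155099636, minus strand) are on chromosome 1, and Dusp4 (34807297 to 34819894, plus strand) and Ier2 (84661331 to 84662852, minus strand) on chromosome 8. Dusp2 is on chromosome 2 (127336159 to 127338376), Dusp5 on chromosome 19 (53529109 to 53542431) and Dusp6 on chromosome 10 (99263231 to 99267489), all on the plus strand. All are annotated as protein coding, and Ier2 and Ier5 have a single exon. Annotated genes on the opposite strand overlap Dusp1 (Ergic1 and a pseudogene), Dusp10 (1700056E22Rik) and Dusp5 (an antisense RNA). With the strand setting not given, their reads cannot be told apart from those of the 3 phosphatase genes. A processed pseudogene and a sense intronic gene also overlap Dusp1 on its own strand, which a strand setting would not separate. Counts assigned to Ergic1 gave 7.65 to 13.2 CPM and those assigned to 1700056E22Rik 3.81 to 8.36 CPM, and neither was highest in both mouse 1 libraries.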

How the data were processed

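Raw counts per gene were deposited by the authors for 6 libraries, 1 per mouse. Per the submitters' processing notes reads were aligned with BWA to mm10; the annotation, counter, strand setting and read layout are not stated there. Groups and mouse numbers follow the labels, which name separate mice.

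The 4 spike-in rows were left out of library sizes and tests. Genotypes were compared on counts by edgeR 4.0.16, run in R 4.3.3 (TMM, robust quasi-likelihood test, filterByExpr with a smallest count of 10, Benjamini-Hochberg adjustment over all 9565 genes tested, threshold 0.05). Standard errors are the log2 fold change over the root of F. Log2 CPM used a prior count of 2. Library totals were 5519748 to 9187017, and 3 counts correspond to 0.328 to 0.534 CPM. The fit was tested on simulated data. Alternatives were RLE size factors, library totals, no filter, a smallest count of 30, DESeq2 1.42.0, limma-voom 3.58.1, a replicate block, each library left out, and mouse 1 of both groups left out.

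The genes, lists, rules and alternatives were chosen with earlier results of these data known. List genes were named as the 2 with the smallest p and the 2 with the highest mean CPM. Marker lists for CD4 T cells (1.09 to 4.38 CPM summed), neutrophils (0.137 to 4.47), erythroid cells (26.9 to 168) and stroma (0.112 to 1.51) were also summed.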

Additional observations from a re-analysis of the deposited data

How the results depend on the processing

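None of the 9 genes was called under any alternative that tested it (smallest adjusted p 0.916); all 9 were tested with no filter, 6 with a smallest count of 30, which leaves out Ier3, and 7 otherwise, and 7 of the 9 were highest in both mouse 1 libraries under each scaling. Leaving out 1 library at a time moved the log2 fold change from -0.84 to 0.90 for Dusp1, -0.77 to 0.37 for Dusp2, -0.16 to 0.40 for Dusp6, -0.15 to 0.48 for Dusp10, -0.63 to 0.29 for Ier2, -0.92 to 0.033 for Ier3 and -0.31 to 0.11 for Ier5, the lowest value in each case without LAIR-1-deficient mouse 1. Without mouse 1 of both genotypes the sign also turned for Dusp1 (-0.10) and Dusp6 (-0.044). The number of genes called, 1 with all libraries, was 3 with no filter, 0 with a smallest count of 30, 0 with limma-voom, 0 without mouse 1 of both genotypes, and 0 to 2 with 1 library left out (0 without wild type mouse 1, 2 without LAIR-1-deficient mouse 2 or mouse 3). Lair1 was not called with limma-voom (-4.20, adjusted p 0.142), without wild type mouse 1 (-4.26, adjusted p 0.0592, in a range of -4.93 to -4.26 over single libraries left out) or without mouse 1 of both genotypes (-4.61, adjusted p 0.0712); the cause was not tested. Where 1 library remained out, the genotype with 2 mice shares the spread estimated over both. The labels do not say that equal numbers mark pairs, so the main fit did not take them as pairs. Deviations of same-numbered mice from their group means correlated at 0.29, 0.0094 and 0.065 over genes. The value for mouse 1 was the highest between any wild type and LAIR-1-deficient library, and not every library correlated best with its own number. Deviations within a genotype depend on each other, so these correlations cannot decide whether the numbers pair the mice. With the mouse number as a replicate block, 1 gene and 0 of the 7 were called; the log2 fold change was 0.04 for Dusp1 (95% interval -0.17 to 0.25), -0.18 for Dusp2 (-0.37 to 0.00090, unadjusted p 0.0510 by edgeR) and -0.13 for Ier2 (-0.46 to 0.21), intervals that hold only if the numbers pair the mice. With a prior count of 0.5 the SD of log2 CPM was 1.31 for Dusp4 and 1.79 for Dusp5, whose few counts limit them.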
